A study of Homo sapiens with 2 samples.

Results

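Levels of the miRNAs miR-31, miR-126, miR-206 and miR-335 were examined with and without LOC550643 knockdown in the breast cancer subline MDA-MB-231-IV2-1. They were selected by name, taking every mature product of the 4 hairpins from either arm, and not by any measured value, although earlier results of these data were known when they were chosen. The 4 hairpins give 7 mature products, miR-31-5p, miR-31-3p, miR-126-5p, miR-126-3p, miR-206, miR-335-5p and miR-335-3p. Of these, 5 were among the 425 miRNAs listed in at least 1 of the small RNA libraries, and miR-126-5p and miR-335-5p were in neither. MDA-MB-231 is a human triple-negative breast cancer cell line, and IV2-1 is a highly metastatic subline of it that was recovered from mice. Control cells received a scrambled siRNA (the N.C library) and knockdown cells a pool of LOC550643 siRNAs (the si-LOC550643 library), and total RNA was taken 48 h later. There is 1 library for each, so no difference below has a replicate check and no p-value is given. The parental MDA-MB-231 cells were not analysed here, so these data hold levels within the metastatic subline and no comparison with the line it came from.

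A mature miRNA guides an Argonaute protein to messenger RNAs that pair with its seed, the bases near its 5′ end, and lowers the output of those messages. The hairpin precursor is cut into a 5p and a 3p arm, and usually 1 of them accumulates. In breast cancer research miR-31, miR-126, miR-206 and miR-335 are known as suppressors of metastasis. Among them, miR-126, miR-206 and miR-335 are known to be reduced in metastatic derivatives of MDA-MB-231. Background knowledge places miR-335 upstream of SOX4 and tenascin C, and miR-31 upstream of several genes of cell motility, among them RHOA. In normal tissue miR-126 is best known from endothelial cells and miR-206 from skeletal muscle, where it belongs to the miR-1 group of myogenic miRNAs.

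The mature sequences are shown because the seeds set which other miRNAs could share targets with these products. They are RefSeq sequences on GRCh38.p14, found by name for 6 of the 7 products, and the capitals mark bases 2 to 8, the seed.
miR-206: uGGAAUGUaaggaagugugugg
miR-126-3p: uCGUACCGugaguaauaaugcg
miR-126-5p: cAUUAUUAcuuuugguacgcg
miR-31-5p: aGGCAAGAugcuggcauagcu
miR-335-5p: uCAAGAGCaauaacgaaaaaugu
miR-335-3p: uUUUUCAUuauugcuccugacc
The 6 seeds all differ from each other, so the group was brought together by function and not by sequence. The products are 21 to 23 nt long, and their GC content ranged from 30.4% in miR-335-5p to 52.4% in miR-31-5p.

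The hairpins lie at 4 separate places. In GENCODE 29 (GRCh38), MIR31 is at chr9:21512115-21512185 on the minus strand, in an intron of its host transcript MIR31HG. MIR126 is at chr9:136670602-136670686 on the plus strand, in an intron of EGFL7, a gene named for an EGF-like domain and known from endothelial cells. MIR335 is at chr7:130496111-130496204 on the plus strand, in an intron of the imprinted gene MEST, and it overlaps an exon of the antisense gene AC007938.2 on the other strand. MIR206 is at chr6:52144349-52144434 on the plus strand, and no other annotated gene overlaps it. Within 50 kb of the 4 hairpins the annotation has only 1 other miRNA gene, MIR133B, which starts 4489 bp from MIR206.

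The libraries were of unequal depth, and at the levels of these miRNAs the depth limits each statement. The deposited values are RPM (reads-per-million), a share of the miRNA reads of the library, and 1 read was worth 5.29 RPM in the N.C library and 2.03 RPM in the si-LOC550643 library. This places the miRNA reads at about 189034 in the N.C library and 491541 in the si-LOC550643 library, which was 2.6 times as deep. A value of at most 3 reads was treated as being at the floor, which was 15.9 RPM in the N.C library and 6.10 RPM in the si-LOC550643 library. The 8 values of these miRNAs above 0 were whole numbers of reads to within 0.00202 read, so none of them held a fraction of a read. All intervals below are 95% Clopper-Pearson intervals on these reads. They cover counting error only, because reads without molecular identifiers are not independent molecules and 1 library shows no variation between cultures.

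All of these miRNAs had low values in both libraries. Together their products held 14 reads in the N.C library, 74.1 RPM (interval 40.5 to 124 RPM), and 30 reads in the si-LOC550643 library, 61.0 RPM (41.2 to 87.1 RPM). That is 0.00741% of the N.C miRNA reads and 0.0061% of the si-LOC550643 miRNA reads. Most of this was miR-206, which gave 71.4% of the reads of the group in the N.C library and 60% in the si-LOC550643 library. The ratio of the summed levels, si-LOC550643 over N.C, was 0.824 with an interval of 0.424 to 1.68, and no difference was detectable at this depth.

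**Figure D1:**
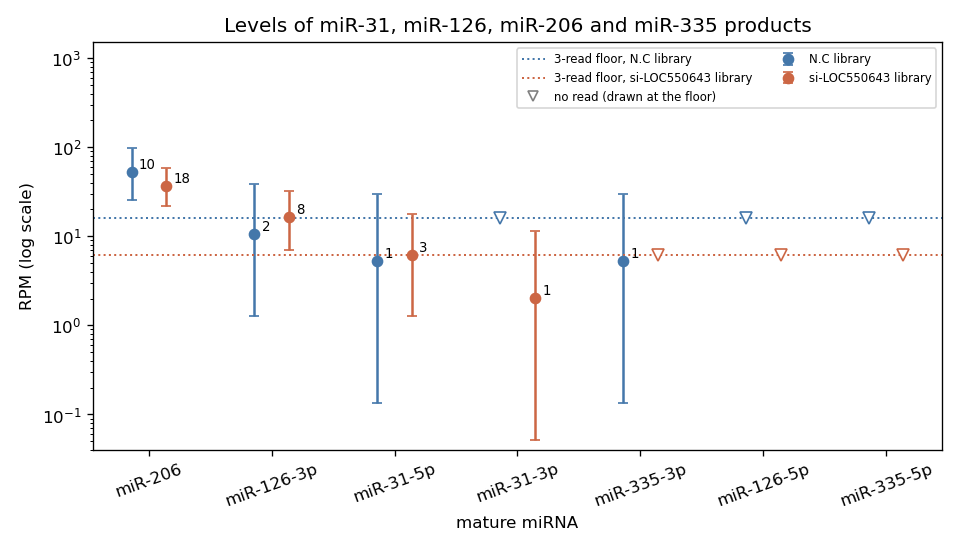
Levels of the 7 mature products in RPM (log scale) in the N.C library (blue) and the si-LOC550643 library (orange), with 95% counting intervals and the number of reads beside each point. Open triangles mark products with no read, drawn at the 3-read floor of their library (dotted lines, 15.9 and 6.10 RPM), and miR-206 alone is above the floor in both libraries.

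The most abundant of them was miR-206, a miRNA of skeletal muscle that is also studied as a regulator of the oestrogen receptor in breast cancer. It had 10 reads in the N.C library, a level of 52.9 RPM (interval 25.4 to 97.3 RPM). In the si-LOC550643 library it had 18 reads, a level of 36.6 RPM (21.7 to 57.9 RPM). The value was lower in the si-LOC550643 library, and the intervals overlap. It was the only product of the 4 hairpins with more than 3 reads in both libraries. Its log2 fold change, si-LOC550643 over N.C on the log2(RPM + 1) scale, was -0.52. As a ratio of reads corrected for depth, the log2 value was -0.53 with an interval of -1.72 to 0.75, so a fall to 0.303 times and a rise to 1.68 times the control level both lie within counting error. At the control level the si-LOC550643 library would hold 26.0 reads of miR-206, where 18 were listed.

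In rank miR-206 stood in the middle of each library. It was at rank 151 to 152 of 376 in the N.C library, where 1 other miRNA had the same number of reads, and at rank 153 to 161 of 375 in the si-LOC550643 library. Of the listed miRNAs, 59.6% in the N.C library and 57.1% in the si-LOC550643 library had fewer reads than miR-206. The distance to the top was large. The level of miR-148a-3p, the most abundant miRNA, was 3688 times that of miR-206 in the N.C library and 6664 times in the si-LOC550643 library. The oncogenic miR-21-5p was 3329 and 4804 times as abundant as miR-206.

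By the summed absolute difference in log2(RPM + 1) over the 2 libraries, the miRNAs with levels most like those of miR-206 were miR-107, miR-1268b and miR-450a-5p. The closest was miR-107, at 51.1 RPM in the N.C library and 37.3 RPM in the si-LOC550643 library, a summed difference of 0.07. For miR-1268b the values were 47.6 and 37.6 RPM (0.19), and for miR-450a-5p they were 58.2 and 34.6 RPM (0.22). This likeness rests on 2 libraries and describes only the level.

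The relatives of miR-206 were rarer than miR-206 itself or had no read. Only miR-1-3p and miR-613 share bases 2 to 8 with it among the 2370 mature miRNAs of the RefSeq table, and no other product above shares its seed with another miRNA there. The sequences of this group are set out to show how far they agree beyond the seed in capitals.
miR-206: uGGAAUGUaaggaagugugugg
miR-1-3p: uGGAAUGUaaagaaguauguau
miR-613: aGGAAUGUuccuucuuugcc
Counted from 1 at the 5′ end, with the base of miR-206 first, miR-1-3p differs from miR-206 by G11A, G17A, G21A and G22U. The other 18 of 22 positions are identical. The tables list miR-1 without an arm, and it was taken as miR-1-3p. It had no read in the N.C library and 3 reads in the si-LOC550643 library (6.10 RPM), which is at the floor, so no fold change is given. No read was listed for miR-613. The genomic neighbour of miR-206, miR-133b, had no read in either library, nor did the listed muscle markers miR-133a-3p, miR-208a-3p, miR-208b-3p and miR-499a-5p. Over the 6 markers of skeletal and heart muscle, the summed level was 0 RPM in the N.C library and 6.10 RPM in the si-LOC550643 library, all of it miR-1, against 52.9 and 36.6 RPM of miR-206. These 6 do not cover all miRNAs known from muscle. Outside them, miR-486-5p was at 74.1 RPM in the N.C library and 89.5 RPM in the si-LOC550643 library.

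Among the other 3 hairpins, miR-126-3p had the most reads. The miRNA miR-126-3p is the endothelial arm known for dampening inhibitors of VEGF signalling such as SPRED1. It had 2 reads in the N.C library, 10.6 RPM (interval 1.28 to 38.2 RPM), and 8 reads in the si-LOC550643 library, 16.3 RPM (7.03 to 32.1 RPM). The control value is under its floor and the knockdown value is above its own. Had the knockdown level held in the N.C library, 3.08 reads would have been listed there, close to the 2 seen. The log2 fold change was 0.58, and the log2 ratio of reads was 0.62 with an interval of -1.70 to 3.89, so no difference was detectable. Its rank was 227 to 271 of 376 in the N.C library, among 45 miRNAs with the same 2 reads, and 208 to 216 of 375 in the si-LOC550643 library.

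No read of miR-126-5p, the arm from the other side of the hairpin, was listed in either library. With 8 reads on the 3p arm and none on the 5p arm in the si-LOC550643 library, the share of the 5p arm was 0% with an interval reaching 36.9%, and in the N.C library, with 2 reads in all, the interval reached 84.2%. A hairpin listed through 1 arm is common at this depth. Of the hairpins with 4 to 16 reads over both arms, 66.7% of 42 in the N.C library and 74.5% of 51 in the si-LOC550643 library had 1 arm listed.

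The level of miR-31, whose loss or gain alters invasion and metastasis in experimental breast tumours, lay at the floor. Its main arm, miR-31-5p, had 1 read in the N.C library (5.29 RPM, interval 0.134 to 29.5 RPM) and 3 reads in the si-LOC550643 library (6.10 RPM, 1.26 to 17.8 RPM). At equal levels, the 3 reads of the deeper library would correspond to 1.15 reads in the N.C library, where 1 was listed. The passenger arm miR-31-3p had no read in the N.C library and 1 read in the si-LOC550643 library (2.03 RPM). Both arms were at or under 3 reads in each library, so no fold change is given for them. In the N.C library miR-31-5p was among the 104 miRNAs of 1 read at rank 272 to 375 of 376. In the si-LOC550643 library it stood at rank 272 to 299 of 375. Summing the arms of every hairpin shortens the list, and miR-31 then stood at rank 207 for si-LOC550643 and 222 for N.C. Summed over both arms, the hairpin had 1 read in the N.C library and 4 in the si-LOC550643 library, a ratio of 1.54 with an interval from 0.152 to 75.8.

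The fewest reads over both libraries were those of miR-335, the suppressor of SOX4 and tenascin C. The arm to which this activity belongs, miR-335-5p, had no read in either library, and its interval reached 19.5 RPM for N.C and 7.50 RPM for si-LOC550643. For scale, miR-21-5p was 28820 times the 3-read floor of the si-LOC550643 library. The other arm, miR-335-3p, had 1 read in the N.C library (5.29 RPM, interval 0.134 to 29.5 RPM) and none in the si-LOC550643 library. At the control level the si-LOC550643 library would hold 2.60 reads, where none was listed. As both values are at or under the floor, no fold change is given. Leaving out miR-31-3p, the order of the levels was thus miR-206, miR-126-3p, miR-31-5p and then miR-335-3p, with miR-31-5p and miR-335-3p equal in the N.C library. With 1 read, miR-31-3p stood between miR-31-5p and miR-335-3p in the si-LOC550643 library, and it had no read in the N.C library.

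Not all steps of this order exceed counting error. In the N.C library miR-206 held 83.3% of the 12 reads of miR-206 and miR-126-3p (interval 51.6% to 97.9%), which excludes equal levels. In the si-LOC550643 library its share was 69.2% of 26 reads, with an interval of 48.2% to 85.7% that includes equal levels. Between miR-126-3p and miR-31-5p the interval included equal levels in both libraries, 9.43% to 99.2% of 3 reads in the N.C library and 39.0% to 94.0% of 11 reads in the si-LOC550643 library. The step from miR-31-5p to miR-335-3p was also within counting error, with miR-31-5p at 50% of 2 reads (1.26% to 98.7%) for N.C and at 100% of 3 reads (29.2% to 100%) for si-LOC550643. Against miR-31-5p, miR-206 was higher beyond counting error in both libraries, with 90.9% of 11 reads (58.7% to 99.8%) and 85.7% of 21 reads (63.7% to 97.0%).

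**Figure D2:**
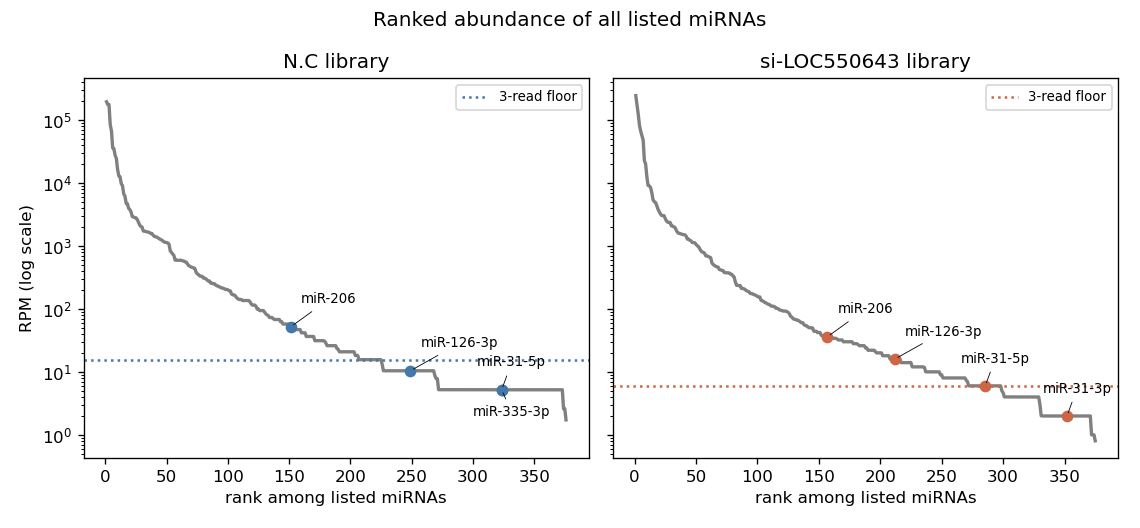
Level in RPM (log scale) against rank for all listed miRNAs in the N.C library (left, 376 miRNAs) and the si-LOC550643 library (right, 375 miRNAs), with products of miR-31, miR-126, miR-206 and miR-335 as coloured points, each placed at the middle of the ranks it shares with ties. The point of miR-206 sits near rank 150 in both, and miR-31-5p and miR-335-3p share the long step of 1-read miRNAs in the N.C library.

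Setting the libraries against each other, 1 of the 5 listed products was more than 2-fold higher in the si-LOC550643 library and 1 was more than 2-fold lower, on the log2(RPM + 1) scale and with a missing miRNA taken as 0. The higher one was miR-31-3p and the lower one miR-335-3p, and each rests on 1 read in 1 library. The shares over all 425 miRNAs were 17.9% for the higher and 27.3% for the lower direction. Being listed in 1 library through a lone read was also common, since 45 of the 50 miRNAs found only in the N.C library and 19 of the 49 found only in the si-LOC550643 library had at most 1 read. Of the 201 miRNAs above the floor in both libraries, 14.4% were beyond 2-fold in either direction, and miR-206, the only product of the group among them, was not. The median log2 fold change of the 5 products was 0.17, beside -0.20 for all 425 miRNAs. Of the 5 values behind this median, 3 come from products at or under the floor in both libraries. With values under the floor raised to it, the other 2 had log2 fold changes of -0.52 for miR-206 and 0.03 for miR-126-3p, with a median of -0.24.

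**Figure D3:**
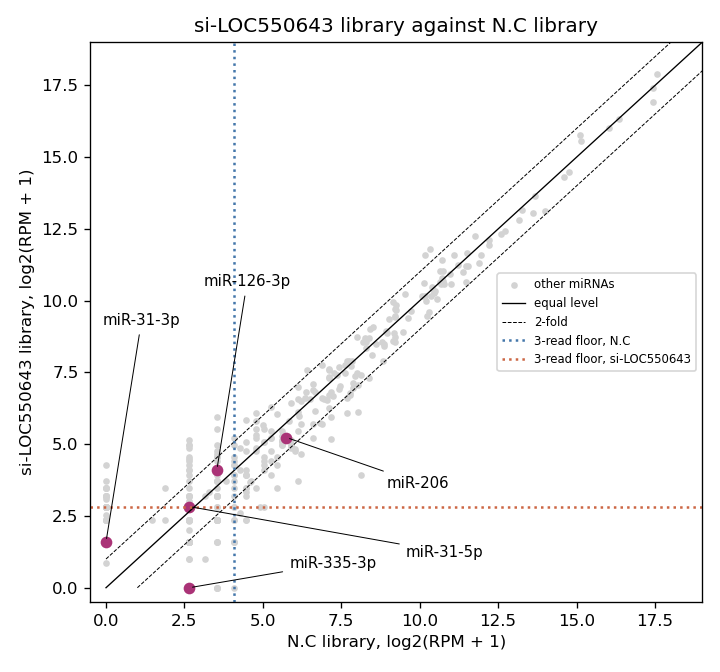
Level in the si-LOC550643 library against the N.C library on the log2(RPM + 1) scale for all 425 miRNAs, with the 5 listed products of miR-31, miR-126, miR-206 and miR-335 in purple, the line of equal levels, dashed lines at 2-fold and dotted lines at the 3-read floors. The points of miR-206, miR-126-3p and miR-31-5p lie between the dashed lines, and miR-31-3p and miR-335-3p lie outside them at 1 read.

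LOC550643 is a long RNA and not a mature miRNA, so its knockdown cannot be read from these tables. The study measured the knockdown by real-time PCR. The study asked which miRNAs LOC550643 binds, on the reasoning that such miRNAs could rise when it is depleted. It predicted such miRNAs with TargetScan and reasoned from sites that are highly complementary to the miRNA. For miR-125b-2-3p it also used luciferase reporters with intact and mutated sites, and PCR after overexpression and knockdown of LOC550643. Here the isoforms given with the study (V1 of 718 nt, V2 of 581 nt and V3 of 476 nt) were searched for seed matches. The search took the reverse complement of each seed on the transcript strand, a looser criterion than a highly complementary site. No isoform held a 7-base match to bases 2 to 8 of any of the 6 sequences above, and 5.86% of all 2370 RefSeq mature miRNAs have such a match in V1. A 6-base match to bases 2 to 7 was found for both arms of miR-335 and for no other of the 6, beside 18.8% of all mature miRNAs in V1. For miR-335-5p the letters searched were CTCTTG, found once at bases 39 to 44 of V1 and V2, and for miR-335-3p they were TGAAAA, found once at bases 393 to 398 in V1 and at 151 to 156 in V3. The stretches around them are shown because they are the only matches in the group, with the matching bases in capitals.
LOC550643 with the miR-335-5p letters: ccatctcaggtCTCTTGgctttgccagg
LOC550643 with the miR-335-3p letters: agttcacctggTGAAAAcaatgaagatt
The levels give nothing to set beside these matches, as miR-335-5p had no read in either library and miR-335-3p had its only read in the N.C library.

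Other miRNAs with a reported role in breast cancer metastasis give a scale for these levels. Of 18 further miRNAs known as suppressing, 13 were listed, and 9 of them had more reads than miR-206 in the N.C library and 8 in the si-LOC550643 library. The list holds miR-148a-3p, at 195101 RPM in the N.C library and 243955 RPM in the si-LOC550643 library, and miR-30a-5p, at 67338 and 66402 RPM. Of 12 miRNAs known as promoting metastasis, 9 were listed and 6 had more reads than miR-206 in each library, led by miR-21-5p at 176111 and 175871 RPM, while miR-107 had the same rounded number of reads as miR-206 in both. A low level was not shared by all suppressing miRNAs in these cells, nor was a high level shared by all promoting ones, as miR-10b-5p was at 18.5 and 28.5 RPM and miR-155-5p at 15.9 and 10.2 RPM.

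Of the 13 listed miRNAs of the suppressing list, 1 was more than 2-fold higher and 2 were more than 2-fold lower in the si-LOC550643 library, with a median log2 fold change of -0.02. Over all 425 miRNAs the shares were 17.9% and 27.3%, and the median was -0.20. The higher one was miR-34a-5p, a target of p53, at 5.29 RPM in the N.C library (1 read) and 30.5 RPM in the si-LOC550643 library (15 reads). Its log2 ratio of reads was 2.53 with an interval of -0.17 to 7.92, which includes 0. The lower ones were miR-340-5p, at 58.2 RPM (11 reads) and 28.5 RPM (14 reads) with a log2 ratio of reads of -1.03 (-2.28 to 0.25), and miR-200c-3p, at 5.29 and 1.02 RPM, under the floor in both libraries. None of the 9 listed miRNAs of the promoting list was beyond 2-fold, and their median log2 fold change was -0.29, beside the same shares and median over all miRNAs. The intervals of the abundant miRNAs in these lists were narrow beside those of miR-206 and miR-126-3p.

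**Figure D4:**
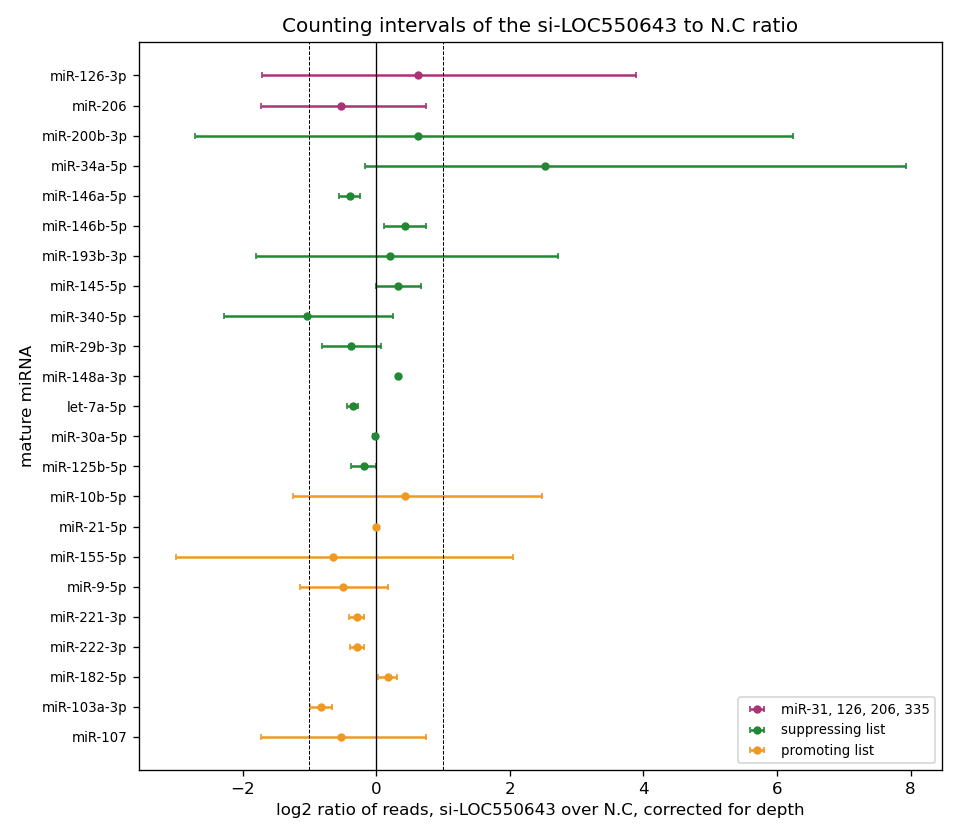
Log2 ratio of reads, si-LOC550643 over N.C and corrected for depth, with 95% counting intervals, for miR-206 and miR-126-3p (purple) and for the miRNAs of the suppressing (green) and promoting (orange) lists that had more than 3 reads in a library, with dashed lines at 2-fold. The intervals of miR-206 (-1.72 to 0.75) and miR-126-3p (-1.70 to 3.89) include 0, while those of abundant miRNAs such as miR-148a-3p and miR-21-5p are no wider than their points.

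Marker miRNAs were read beside the labelled cell type, though short lists chosen with earlier results known cannot verify it. Of 6 epithelial markers, the miR-200 group and miR-205-5p, only miR-200b-3p and miR-200c-3p were listed, with a summed level of 10.6 RPM in the N.C library and 8.14 RPM in the si-LOC550643 library. The 4 markers of mesenchymal-like breast cancer lines, miR-221-3p, miR-222-3p, miR-100-5p and miR-125b-5p, were all listed, from 1740 to 176487 RPM in the N.C library and from 1528 to 123748 RPM in the si-LOC550643 library. None of the 6 blood markers (miR-451a, miR-144-3p, miR-142-3p, miR-142-5p, miR-223-3p and miR-150-5p) and not the liver marker miR-122-5p had a read in either library. These short lists do not cover all miRNAs known from blood or liver, and no list was read for fibroblasts or smooth muscle. Outside them, miR-486-5p, known from red blood cells and from muscle, was at 74.1 RPM for N.C and 89.5 RPM for si-LOC550643. For miR-192-5p, also known from liver, the values were 600 and 913 RPM. For endothelial cells no marker list was read beside miR-126 itself, so its values were not compared with other endothelial miRNAs.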

How the data were processed

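The small RNA of 2 transfected cultures of the IV2-1 subline was measured, with 1 library for N.C and 1 for si-LOC550643. Libraries were made with a small RNA kit, and the authors counted mature miRNAs with software of their own and deposited them as RPM, 1 table for each library. The submitters' processing notes name cutadapt, FastQC and hg38. The aligner, the miRNA release and any minimum for listing a miRNA are not given in the sources used here. RPM values are shares of the miRNA reads, so each depends on the most abundant miRNAs.

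From the deposited RPM, values were rescaled to the same total, missing miRNAs were set to 0, and log2 fold changes used a pseudocount of 1 RPM, which understates changes of low miRNAs. The RPM of 1 read was fitted by least squares to values up to 20 reads lying within 0.1 read of a whole number. Of all values up to 20 reads, 92.9% of 253 in the N.C library and 91.5% of 224 in the si-LOC550643 library were whole, so no count test was run and reads were rounded. Ratio intervals come from the binomial share of the si-LOC550643 reads in the summed reads. A value of at most 3 reads was treated as being at the floor. The procedure was tested on simulated data. There the intervals were scored only at summed reads above those of every product of miR-31, miR-126, miR-206 and miR-335. The simulation therefore did not check the intervals of these products. Sequences are from RefSeq (350 of the 425 listed names matched), gene positions from GENCODE 29.

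The miRNAs, marker lists and metastasis lists were chosen with earlier results of these data known. Named miRNAs were the products of the 4 hairpins, miRNAs sharing a seed or lying within 50 kb, the 3 nearest in level to any product above 3 reads in both libraries, marker miRNAs, and list miRNAs that were among the 5 most abundant or beyond 2-fold. Outside this rule, miR-10b-5p, miR-155-5p, miR-486-5p and miR-192-5p were named after their values were seen. Alternatives covered scaling, pseudocount, fold threshold, filters on low values and summed arms. Python 3.11.15, numpy 2.4.6, scipy 1.17.1 and matplotlib 3.10.9 were used.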

Additional observations from a re-analysis of the deposited data

How the results depend on the processing

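No paired analysis was possible because N.C and si-LOC550643 have 1 library each. The log2 fold change of miR-206 lay between -0.55 and -0.32 and that of miR-126-3p between 0.35 and 0.77 over 14 alternatives. All had the sign reported and lay inside the counting intervals, -1.72 to 0.75 and -1.70 to 3.89, which are far wider than these shifts. Summing the arms could change neither value, because miR-206 has only 1 product and miR-126-5p had no read. Scaling by the median of ratios or by the 75th percentile raised the log2 ratio of each miRNA by 0.20 and 0.19. The rank of miR-206 was 151 and 153, and 136 and 140 with the arms of each hairpin summed. In the si-LOC550643 library this summing moved miR-31-5p from rank 272 and miR-31-3p from rank 330 to rank 207. That lies outside the ranks that their counting intervals span, but summing also shortens the list. In the N.C library summing moved miR-335-3p, with no read on its other arm, from rank 272 to 222. The other 14 of 16 rank alternatives stayed within the ranks spanned by their counting intervals. Those that ranked a product among miRNAs listed in either library could not change, as this only adds names with no read. The numbers of all miRNAs beyond 2-fold, 76 higher and 116 lower, became 28 and 66 when only miRNAs listed in both tables were counted, 34 and 51 at 10 RPM or more in either, 3 and 7 at a mean of 100 RPM or more, and 19 and 25 with a pseudocount of 10 RPM. These settings leave out or damp miRNAs of few reads, and 125 of the 192 calls rested on 3 or fewer reads in each library. The suppressing list had 1 miRNA more than 2-fold lower in place of 2 when only miRNAs with more than 3 reads in a library were kept, and 1 with median-of-ratios scaling, whose rise of 0.20 takes miR-340-5p, at -1.01, inside 2-fold. Depth limits every value of these 4 hairpins, and a level under 15.9 RPM in the N.C library or 6.10 RPM in the si-LOC550643 library rests on at most 3 reads.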
